A study of Rattus norvegicus with 8 samples.

Results

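The dopamine receptors and the enzymes of monoamine metabolism were followed as 9 genes in the dentate gyrus (DG) of female rats that had undergone status epilepticus (SE). They were the receptors Drd2, Drd3, Drd4 and Drd5, the synthetic enzymes Th and Ddc, the oxidases Maoa and Maob, and Ppp1r1b, which encodes the phosphatase inhibitor DARPP-32. The members are the non-control spots whose gene name in the scanner files is one of these 9, which gave 28 of 43379 spots and 9 of 35199 gene names. Adult female Sprague-Dawley rats of 150 to 200 g were ovariectomized (OVX) and received either oil (COS, n = 4) or estradiol (CES, n = 4), and total RNA of the DG was labeled for Agilent 2-colour arrays. According to the labels, SE was induced in both groups with 16 mg/kg of kainic acid and ended with pentobarbital after 5 h, and CES rats had 4 doses of 2 μg of estradiol 24 h apart, 2 of them before and 2 of them after SE. The methods of the study give a different dose of kainic acid, another drug to end SE and all injections before SE, and they give more than a single time of tissue collection, so the schedule of these rats is uncertain. Rats without SE were not analysed here, and the comparison asks how E2 replacement changed the level of these transcripts in seizured OVX rats. Nothing in the labels beyond the replicate numbers says how the rats were housed or dissected together. The p-values measure the spread between these rats. No array held rats of both groups, so differences between arrays and between groups cannot be fully separated.

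Dopamine and the other catecholamines are made from tyrosine, which tyrosine hydroxylase (Th) converts to L-DOPA and aromatic L-amino acid decarboxylase (Ddc) converts to dopamine. Ddc also makes serotonin, and monoamine oxidases A and B (Maoa, Maob) break the amines down. The cell bodies of neurons that make dopamine lie mostly in the midbrain, and the DG receives their axons and those of noradrenergic and serotonergic neurons. Receptors of the D1 family (Drd1, Drd5) raise cyclic AMP and those of the D2 family (Drd2, Drd3, Drd4) lower it, and DARPP-32, once phosphorylated by protein kinase A, inhibits protein phosphatase 1.

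Detection differed between the genes and, over all spots, between the dyes. The scanner software marked Maoa and Maob as well above background in all 8 rats, on every spot. Drd5 and Ddc carried the mark in 3 of 4 COS and 4 of 4 CES rats, with COS replicate 3 as the exception for both. Ppp1r1b was marked in 2 of 4 COS and 4 of 4 CES rats, and Drd3 in 1 of 4 COS and 3 of 4 CES rats. Drd4 was marked in 0 of 4 COS rats and in 2 of 4 CES rats, replicates 2 and 4. Of the 10 spots of Th, 10 were marked in COS replicates 2 and 4 and in CES replicate 2, 9 in CES replicate 4, 1 in COS replicate 1 and 0 in the remaining rats. Of the 10 spots of Drd2, 8 were marked in CES replicate 2 and 9 in CES replicate 4, while COS replicates 1 and 2 had the mark on the same single spot and the other rats on 0 spots.

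Replicates 1 and 3 of each group were labeled with Cy3 and replicates 2 and 4 with Cy5, so that both groups held both dyes equally. On average 4.75 members were marked in a Cy3 rat and 8 in a Cy5 rat (two-sided exact permutation test, p = 0.0857), against 5.5 in a COS and 7.25 in a CES rat (exact p = 0.457). With 4 against 4 rats the smallest exact p is 0.0286. Over all non-control spots the mean share marked was 48.0% in Cy3 and 61.7% in Cy5 (exact permutation p = 0.0286), and 54.5% in COS and 55.2% in CES (exact permutation p = 0.857). For the members neither difference passed the test, and marks found in CES rats alone are not given as a difference between groups. A foreground of at least 2 times the local background, on at least 1 spot in each of the 8 rats, was found for all 9 genes, and all 9 were quantified.

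**Figure D1:**
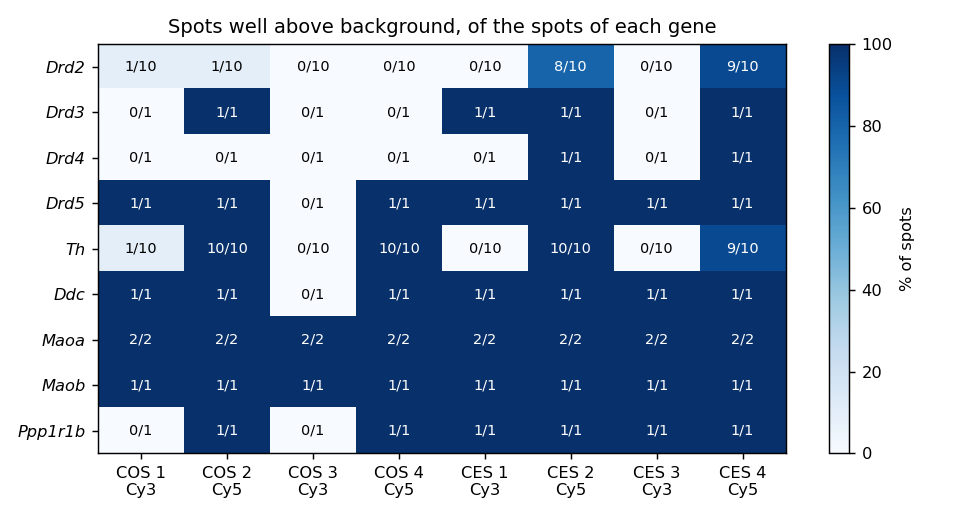
Number of spots that the scanner software marked as well above background, of the spots of each gene (rows), in each rat (columns, with the dye of the rat), shaded by the percentage of spots marked. Maoa and Maob were marked in all 8 rats, whereas Th and Drd2 were marked mostly in Cy5 rats.

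Levels are log2 values of the net signal, which is foreground minus local background, relative to the median valid spot of the same channel, so that 0 is that median. They are compared between rats for a single gene and never between genes. Of 21332 genes quantified in all 8 rats, limma with dye as a term and array as a random block called 34.1% at an adjusted p under 0.05, 5.80% higher and 28.3% lower in CES. Of the 9 members, Ddc was called higher and Maoa lower, and the other 7 were not called. The COS and CES values did not overlap for the same 2 genes, Ddc being higher and Maoa lower in CES, where non-overlap held for 1.61% of all genes in the higher and 19.8% in the lower direction. The median difference of the members, CES minus COS, was 0.04 on the log2 scale, and that of all genes was −0.25. The latter depends on the scaling and was 0.06 after loess within and Aquantile between arrays, where 61.7% of all calls were higher, against 17.0% as reported. For this reason differences are also set against this median.

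**Figure D2:**
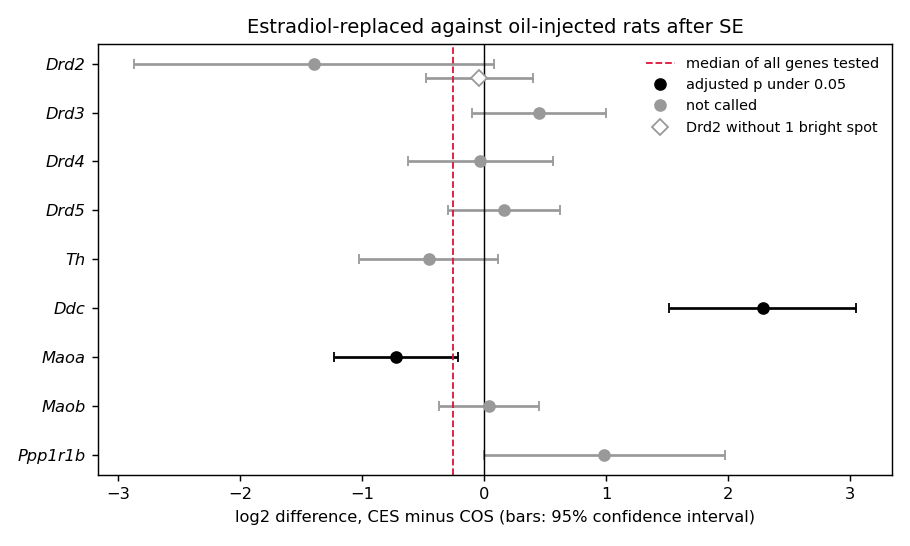
Difference of the log2 level, CES minus COS, of each of the 9 genes (x axis, log2 units) with its 95% confidence interval from limma, black where the adjusted p was under 0.05. The dashed line marks the median of all genes, −0.25, and the open diamond gives Drd2 without its bright spot, −0.04. Ddc lay far to the right at 2.28, and the interval of Maoa lay below 0.

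Ddc, the decarboxylase that forms dopamine and serotonin, had the largest difference among the 9 genes. Its log2 level was −0.68, −1.79, −0.64 and −1.38 in COS replicates 1 to 4. It was 1.70, −0.31, 1.63 and 1.62 in CES replicates 1 to 4. No CES value was as low as the highest COS value, with CES replicate 2 near the COS values and the other CES rats close to each other. The net signal of the spot was between 153 and 275 in COS and between 501 and 1522.5 in CES. The means were −1.12 ± 0.56 and 1.16 ± 0.98 (SD, n = 4 each), and CES minus COS was 2.28 with a standard error of 0.34 and a 95% confidence interval from 1.51 to 3.05. This is 4.87-fold, with an adjusted p of 0.0039 by limma. Less the median of all genes, this was 2.54. Within a dye it was 2.33 among the Cy3 rats and 2.24 among the Cy5 rats. The array carries 1 spot for Ddc, at rn4 chr14:92698673-92698732 on the minus strand, so there is no second spot to compare.

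The call of Ddc was kept in 22 of the 24 alternatives that measured it. It was lost without the filter on valid spots, where limma gave 2.63 and an adjusted p of 0.0766 and no gene was called. It was also lost with the methods' t-test once adjusted over all genes, at an adjusted p of 0.0906. The methods themselves describe no adjustment over all genes. The difference fell to 1.47 under normexp background correction, and it ran from 1.87 without CES replicate 4 to 2.68 without CES replicate 2 when rats were left out. Without COS replicate 3 the adjusted p was 0.0475. A list of 4 genes of CA pyramidal neurons, the principal cells next to the DG, moved with Ddc. Wfs1, Neurod6 and Pou3f1, well above background in all 8 rats, were called higher in CES by 0.98, 1.90 and 2.23 on the log2 scale. Fibcd1 was called higher too, but it was well above background in 0 of 4 COS and 2 of 4 CES rats, and no size is given. The summed level of the 4 genes, in units of the channel median, ranged over 15.2–21.0 in COS and 33.3–77.7 in CES, and CES replicate 2 was the lowest CES rat for the sum as for Ddc. Of 7 choroid plexus markers 6 were quantified and 0 were called, and their sum ran from 13.5 to 622.9 in COS and from 16.7 to 195.2 in CES. Endothelial markers were mixed, with 4 of 5 quantified, 1 called higher and 2 called lower in CES. Slco1c1 was higher by 1.99, Flt1 and Tek were lower by −1.04 and −0.81, and Cldn5 (−0.25) was not called. Their sum ran from 21.01 to 25.99 in COS and from 31.17 to 47.06 in CES. The part of CA, endothelial or choroid plexus cells in the Ddc difference was not tested. In bulk tissue more cells of a type and more RNA per cell cannot be told apart.

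Ddc is known to start from alternative first exons in neurons and in other tissues, and the probe does not tell which start was used. RefSeq gives 3 starts on GRCr8, of which the second and the third lie 7157 and 16963 bases downstream of the first. The 250 bases before each are shown because Ddc is the member that rose, with the AP-1 site and the GGTCA core of the estrogen response element (TGACC on the other strand) in capitals:
Ddc start 1, GRCr8 chr14:90682784-90683033, minus strand: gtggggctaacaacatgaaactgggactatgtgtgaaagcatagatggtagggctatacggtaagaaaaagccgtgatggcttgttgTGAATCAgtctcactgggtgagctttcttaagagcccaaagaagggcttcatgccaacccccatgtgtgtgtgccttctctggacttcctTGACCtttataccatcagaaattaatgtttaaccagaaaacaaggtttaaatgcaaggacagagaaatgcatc
Ddc start 2, GRCr8 chr14:90675627-90675876, minus strand: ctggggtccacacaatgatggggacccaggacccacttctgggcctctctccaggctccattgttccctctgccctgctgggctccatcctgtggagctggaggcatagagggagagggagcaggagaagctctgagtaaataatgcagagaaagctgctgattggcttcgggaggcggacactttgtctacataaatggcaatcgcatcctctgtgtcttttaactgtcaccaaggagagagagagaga
Ddc start 3, GRCr8 chr14:90665821-90666070, minus strand: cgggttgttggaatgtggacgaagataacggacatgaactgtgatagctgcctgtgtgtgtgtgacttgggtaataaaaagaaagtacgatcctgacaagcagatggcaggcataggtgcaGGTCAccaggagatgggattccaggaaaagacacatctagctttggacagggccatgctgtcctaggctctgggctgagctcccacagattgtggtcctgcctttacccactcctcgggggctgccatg
The motifs were searched on both strands from 250 bases before to 50 after each start. The core is GGTCA, the full element is a pair of such cores facing each other with 3 bases between them, the AP-1 site is TGANTCA, and the cyclic AMP response element is TGACGTCA with TGACG as its core. Start 1 of Ddc held 1 GGTCA core and 1 AP-1 site, start 2 held 0 matches, and start 3 held 2 GGTCA cores, of which the one that reaches over the start is not capitalised above. The GGTCA core occurs in 40.5% of all 33469 windows and AP-1 sites in 7.33%. The full element was in 0 of the 10 windows of the members and in 0.0269% of all windows. A match describes the letters and is not a binding site.

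The 3 genes with the log2 levels most like those of Ddc over the 8 rats were TC612516 (Pearson r = 0.991), TC597989 (r = 0.991) and Gria2 (r = 0.990), which encodes an AMPA receptor subunit. Gria2 was higher in CES by 1.88 on the log2 scale. The r values include the difference between the groups and the dyes that all 8 rats share.

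Maoa, which oxidises serotonin and noradrenaline, was lower in CES. Its log2 level was 2.95, 2.78, 3.32 and 2.74 in COS replicates 1 to 4. It was 2.36, 2.70, 2.12 and 1.72 in CES replicates 1 to 4. The groups did not overlap, but CES replicate 2 lay only just below the lowest COS rat. The means were 2.95 ± 0.26 and 2.23 ± 0.41 (SD, n = 4 each), and the difference was −0.72 with a standard error of 0.23, a 95% confidence interval from −1.23 to −0.21 and an adjusted p of 0.0353 by limma. COS was thus 1.65-fold higher. Less the median of all genes, this was −0.47.

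The call of Maoa was lost in 16 of 25 alternatives, with the direction lower in all 25. With that median subtracted it ran from −0.68 to −0.23. The difference was −0.35 after loess within and Aquantile between arrays and −0.32 when channels were scaled on the spots that were valid in every rat, with adjusted p values of 0.258 and 0.280. Leaving out COS replicate 1, 2, 3 or 4 gave −0.76, −0.75, −0.61 or −0.78, and leaving out CES replicate 1, 3 or 4 gave −0.71, −0.56 or −0.51, and each of these 7 lost the call, which was kept without CES replicate 2 (−0.95, adjusted p = 0.0020). Their adjusted p ran from 0.0518 to 0.154.

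Maoa is read by 2 probes that share 40 of their 60 bases, shifted by 20 bases, and the shared bases are in capitals here because the pair is no independent measurement:
Maoa probe 1, rn4 chrX:17683676-17686967, minus strand: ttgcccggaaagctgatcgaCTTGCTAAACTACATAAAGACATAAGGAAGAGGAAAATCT
Maoa probe 2, rn4 chrX:17683656-17686947, minus strand: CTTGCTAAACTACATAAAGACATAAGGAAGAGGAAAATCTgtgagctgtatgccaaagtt
The ends of each probe lie 3292 bases apart on the genome, further than its 60 bases. Both probes were lower in CES, by −0.82 (standard error 0.27, adjusted p = 0.0394) and −0.59 (standard error 0.19, adjusted p = 0.0364) on the log2 scale by limma over all probes. The 250 bases before the RefSeq start of Maoa, shown because it is the member that fell, hold none of the motifs:
Maoa start, GRCr8 chrX:8681373-8681622, minus strand: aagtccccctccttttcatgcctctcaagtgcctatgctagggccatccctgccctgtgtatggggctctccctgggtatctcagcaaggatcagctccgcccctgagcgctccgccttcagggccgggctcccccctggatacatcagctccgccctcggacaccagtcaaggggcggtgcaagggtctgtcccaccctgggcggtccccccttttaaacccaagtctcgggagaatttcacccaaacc
Counted from the start, the TGACG core of the cyclic AMP response element begins at base 2, and this core occurs in 21.2% of all windows. The letters from the start on open with ATG, and whether transcription begins there was not tested. The genes most like Maoa over the 8 rats were Sufu, an inhibitor of hedgehog signaling (r = 0.989), XM_217278 (r = 0.989) and Exo1, an exonuclease of DNA repair (r = 0.989).

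Maob, which prefers phenylethylamine and is the main oxidase of astrocytes, was not called. Its log2 level was 1.05, 0.82, 0.73 and 0.36 in COS replicates 1 to 4 and 0.87, 0.38, 1.16 and 0.70 in CES replicates 1 to 4. The groups overlapped throughout, and the difference was 0.04 with a 95% confidence interval from −0.37 to 0.45 and an adjusted p of 0.892. The probes of Maob and Maoa lie 39.7 kb apart on rn4 chromosome X. Whether the oxidases differ from each other was not tested. Of the 6 astrocyte markers 2 were called higher and 1 lower in CES, against 5.80% and 28.3% of all genes. Their sums ran from 82.8 to 105.1 in COS and from 72.1 to 126.1 in CES.

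**Figure D3:**
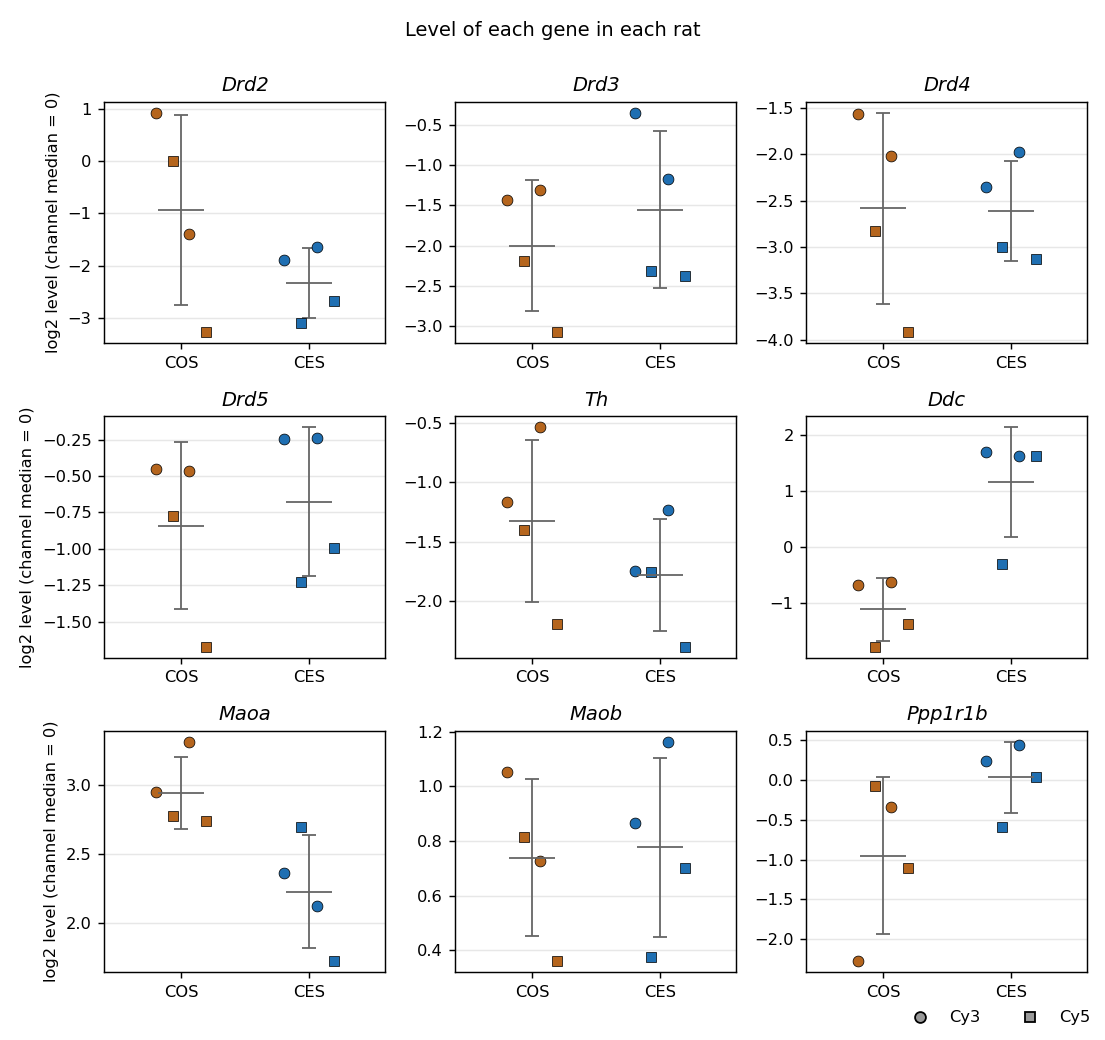
Log2 level (y axis, channel median = 0, a different range in each panel) of each gene in each rat, with circles for Cy3 and squares for Cy5, and the mean and SD of each group as a bar. The groups are separate for Ddc and for Maoa, and the other 7 genes overlap. Cy5 rats lie below Cy3 rats for most dim genes, such as Drd4.

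Ppp1r1b, the gene for DARPP-32, was not called. Its log2 level was −2.28, −0.07, −0.34 and −1.11 in COS replicates 1 to 4, and 0.24, −0.58, 0.44 and 0.04 in CES replicates 1 to 4. COS replicate 1 was far below the other rats, with a net signal of 67.5, and COS replicate 2 on the same array had 545.5, the highest of the 8 rats. The groups overlapped, since CES replicate 2 lay below COS replicates 2 and 3. The difference was 0.99 with a 95% confidence interval from just below 0 to 1.97 and an adjusted p of 0.111. It was 1.65 among Cy3 rats and 0.32 among Cy5 rats. Without the dye term it passed the threshold, at an adjusted p of 0.0238, and so it did when CES replicate 2 was left out (1.24, adjusted p = 0.0412). Without COS replicate 1 the difference was 0.46 (adjusted p = 0.287), and under normexp it was 0.43 (adjusted p = 0.682).

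Drd2, the principal receptor of the D2 family, was called in neither direction, and its value rested on a single spot. With all 8 usable spots averaged, its log2 level was 0.93, 0.00, −1.40 and −3.27 in COS replicates 1 to 4 and −1.90, −3.09, −1.64 and −2.69 in CES replicates 1 to 4. COS replicates 1 to 3 lay above all 4 CES rats, the first 2 of them far above, and COS replicate 4 lay below all 4. The difference was −1.40 with a standard error of 0.66, a 95% confidence interval from −2.87 to 0.08 and an adjusted p of 0.128. It was past the threshold in a single alternative, without COS replicate 4 (−1.97, adjusted p = 0.0356).

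All 10 spots of Drd2 carry the same probe, shown because they should give the same signal:
Drd2 probe, rn4 chr8:52706533-52706592, plus strand: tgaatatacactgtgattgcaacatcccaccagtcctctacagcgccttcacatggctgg
The spot at row 80 and column 84 had a net signal of 4293 in COS replicate 1 and 4002 in COS replicate 2, the pair of rats on this array. The median of the other spots was 96 and 86 in these rats, so the spot was 44.7 and 46.5 times the median. On the other arrays this spot had a net signal of 54.7 to 99.5 and was like its replicates. The scanner software marked it as an outlier in both COS rats. Of the 14 spots within 2 rows and 1 column of it, 6 (Osbpl5, BF282247, XM_343634, Itpr3, Emp2 and Cdx4) were also at least 10 times brighter in both channels of this array than in any other rat of the same dye. Within 8 rows and 8 columns this held for 13 of 168 spots, whereas it held for 64 of all non-control spots of the array and for 61, 44 and 57 on the others. These 6 genes were named for their position after their values were seen.

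Without this spot, an alternative chosen after the data were seen, the log2 level of Drd2 was −1.76, −2.74, −1.42 and −3.26 in COS replicates 1 to 4 and −1.90, −3.12, −1.61 and −2.71 in CES replicates 1 to 4. The groups then overlapped in full, and the difference was −0.04 with a 95% confidence interval from −0.47 to 0.40 and an adjusted p of 0.896. With the median over spots it was 0.00 (adjusted p = 0.997). In the 4 Cy3 rats the median of the other spots was below the 95th percentile of negative controls, which was between 83.8 and 111.8, and it was above that percentile, between 33.3 and 82.6, in the 4 Cy5 rats. Over the array, 263 probes have 10 spots, and a spot at least 10 times the median of the other 9 occurred in 36 of 2104 pairs of probe and rat, in 21 probes.

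**Figure D4:**
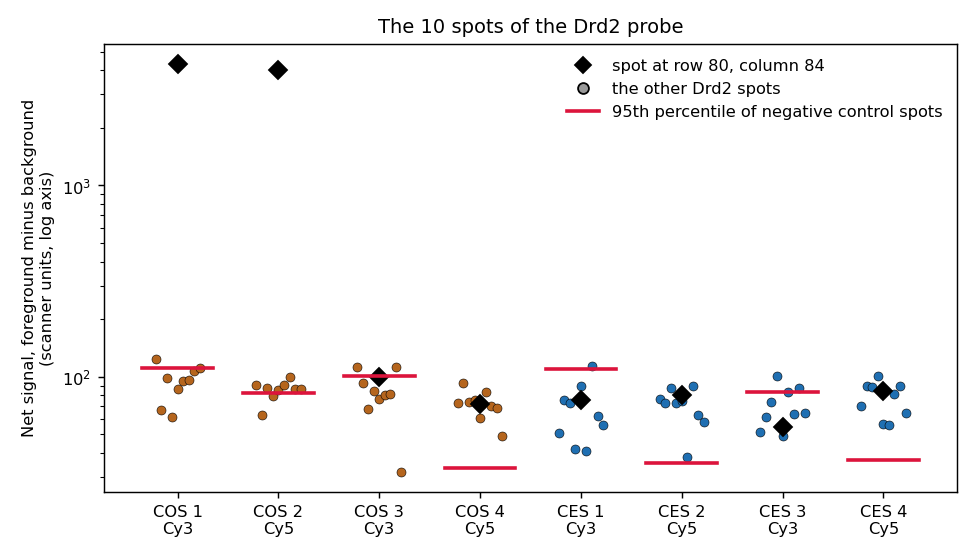
Net signal (foreground minus background, scanner units, log axis) of each of the 10 Drd2 spots in each rat, with the spot at row 80 and column 84 as a black diamond and the 95th percentile of negative controls as a red line. The diamond reads 4293 and 4002 in COS replicates 1 and 2 and lies among the other spots in the remaining rats.

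The other receptors were dim and were not called. Drd3 had log2 levels of −1.43, −2.19, −1.31 and −3.08 in COS and −0.35, −2.32, −1.17 and −2.38 in CES replicates 1 to 4, with a difference of 0.45 (95% confidence interval −0.10 to 1.00, adjusted p = 0.183). Among the alternatives it was called once, on the signal as processed by the scanner software (1.03, adjusted p = 0.0182). Drd4 had −1.57, −2.83, −2.02 and −3.92 in COS and −2.35, −3.00, −1.98 and −3.13 in CES, with a difference of −0.03 (interval −0.63 to 0.56, adjusted p = 0.938) whose direction turned in 10 of 23 alternatives. Drd5, of the D1 family, lay between −1.67 and −0.45 in COS and between −1.23 and −0.24 in CES, with a difference of 0.16 (interval −0.29 to 0.62, adjusted p = 0.563). Over the alternatives the difference ran from 0.09 under normexp to 1.03 for Drd3, and for Drd5 from 0.0044 without COS replicate 4 to 0.58 in the deposited table. In all 3 genes the Cy5 rats lay below the Cy3 rats of their group, and COS replicate 4 was the lowest rat. Drd4 had 0 marks in COS, so its values are those of a signal near background and give no size of a change in the transcript. Drd1, which the array names Drd1a, had at most 1 of 10 spots marked in any rat and was not quantified in all 8 rats.

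Th, the rate-limiting enzyme of catecholamine synthesis, was not called. It was read by 10 spots of 1 probe at rn4 chr1:203165487-203165546. Its log2 level was −1.17, −1.40, −0.54 and −2.19 in COS replicates 1 to 4 and −1.74, −1.76, −1.23 and −2.38 in CES replicates 1 to 4. Single spots had a net signal between 101 and 264 in COS and between 46.8 and 221 in CES, so that no spot of Th was 10 times the median of the others. The groups overlapped, and the difference was −0.45 with a standard error of 0.26, a 95% confidence interval from −1.02 to 0.12 and an adjusted p of 0.195. Less the median of all genes it was −0.20. It was past the threshold in 0 of 23 alternatives, and it shrank to −0.05 with scaling on spots valid in every rat and to −0.08 in the deposited table. Whether the differences of Ddc and Th differ from each other was not tested, and their confidence intervals do not overlap.

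Of 65 other genes of the pathway on the array 53 were quantified, and 4 were called higher and 11 lower in CES, 28.3% in either direction against the 34.1% of all genes. After loess with Aquantile 7 were higher and 3 lower. Of the 15 called genes 14 kept their direction in every alternative that measured them, the exception being Creb1, and 7 (Gch1, Gchfr, Hdc, Hnmt, Aldh1a1, Caly and Ppp3ca) were also called after loess with Aquantile. In the list of other monoamine synthesis, transport and breakdown, 2 of 16 quantified genes were called higher and 5 lower, against 5.80% and 28.3% of all genes. The median difference of this list was −0.35, and −0.09 relative to all genes. The largest differences were those of Gch1 and Gchfr. Gch1 is the first enzyme in the synthesis of tetrahydrobiopterin, the cofactor of Th and tryptophan hydroxylase. Its mean log2 level was 0.99 ± 0.41 in COS and −1.71 ± 1.07 in CES (SD, n = 4 each). The difference was −2.70 (standard error 0.45, adjusted p = 0.0044). Gch1 was well above background in 4 of 4 COS but 2 of 4 CES rats, so this size rests partly on dim signals. Gchfr, which encodes a regulator of the Gch1 enzyme, was marked in all 8 rats. It fell from 3.30 ± 0.57 to 0.80 ± 0.62, a difference of −2.50 (standard error 0.35, adjusted p = 0.0037). In this list the groups did not overlap for 4 genes, Gch1 and Gchfr among them, all lower in CES. Over all genes 19.8% did so in that direction. The other quantified genes of that cofactor in the list were not called, with differences of 0.08 for Pts, −0.27 for Spr and −0.20 for Qdpr. Hdc, the histamine-forming enzyme, was lower by −1.12, with marks in 4 of 4 COS and 2 of 4 CES rats. Hnmt, which inactivates histamine, was higher by 1.01, with marks in 3 of 4 COS and 4 of 4 CES rats. Tph2, the neuronal tryptophan hydroxylase, was lower by −0.84 (adjusted p = 0.0473), with marks in 3 of 4 COS and 2 of 4 CES rats. Aldh1a1, an aldehyde dehydrogenase, was higher by 0.76 (adjusted p = 0.0412). The transporter genes Slc6a3 (dopamine) and Slc6a4 (serotonin), the vesicular transporter Slc18a2 and Dbh, the enzyme that forms noradrenaline, were not quantified in all 8 rats, and Slc6a3 and Dbh were well above background in 0 of 8.

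In the list of receptor coupling and DARPP-32 signaling, 2 of 32 quantified genes were called higher and 5 lower. Over all genes 5.80% were called higher and 28.3% lower. The median difference was −0.07, or 0.18 relative to all genes. Caly, a protein that binds D1 receptors, was higher by 1.00 (adjusted p = 0.0130), and Ppp3ca, the catalytic subunit of calcineurin, which dephosphorylates DARPP-32, was higher by 0.78 (adjusted p = 0.0134). The groups did not overlap for these 2 genes, and for 4 genes of the list in the lower direction. Over all genes this held for 1.61% in the higher and 19.8% in the lower direction. Creb1 was lower by −1.06 (adjusted p = 0.0077), Gnai2, an inhibitory G protein subunit, by −0.78 (adjusted p = 0.0115), Ppp1r1a, another inhibitor of protein phosphatase 1, by −0.65 (adjusted p = 0.0323) and the kinase Csnk1e by −0.63 (adjusted p = 0.0144). Of the transcription factors of catecholamine neurons, 5 of 9 were quantified and 1 was called. This was Nr4a2, also an immediate-early gene, which was lower by −1.16 (adjusted p = 0.0426).

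The labelled tissue was checked against marker lists, whose counts stand beside 5.80% of all genes called higher and 28.3% called lower in CES. Of 7 markers of granule cells, the principal neurons of the DG, 4 were well above background in all 8 rats, while Prox1 and Tdo2 were marked in 0 of 8. Of 6 markers of striatal projection neurons, in which D1 and D2 receptors and DARPP-32 are abundant, 3 were called lower in CES, with sums from 142.6 to 165.6 in COS and from 20.3 to 69.1 in CES. Among these, Tac1 and Penk, which encode neuropeptide precursors and weigh most in the sum, were lower by −3.75 and −2.74 on the log2 scale. The 3 that were not called had differences of 0.02 for Rgs9, 0.26 for Pde10a and −0.39 for Adora2a. The part of such neurons in the values of Drd2 and Ppp1r1b was not tested. Of 6 interneuron markers 3 were called lower, the neuropeptide genes Sst, Npy and Vip, while 0 were called higher. Gad1 (−0.57), Gad2 (−0.58) and Pvalb (0.51) were not called. The sums, in which Sst and Npy weigh most, ran from 343.6 to 554.4 in COS and from 100.5 to 303.3 in CES. Of the 6 quantified granule cell markers, Neurod1 was called higher by 1.16 and C1ql2 and Dsp lower by −1.23 and −1.24, Tdo2 was called lower at a signal that was marked in 0 of 8 rats, and Calb1 and Rspo3 were not called. The granule cell sums ran from 17.2 to 31.1 in COS and from 19.7 to 26.5 in CES.

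**Figure D5:**
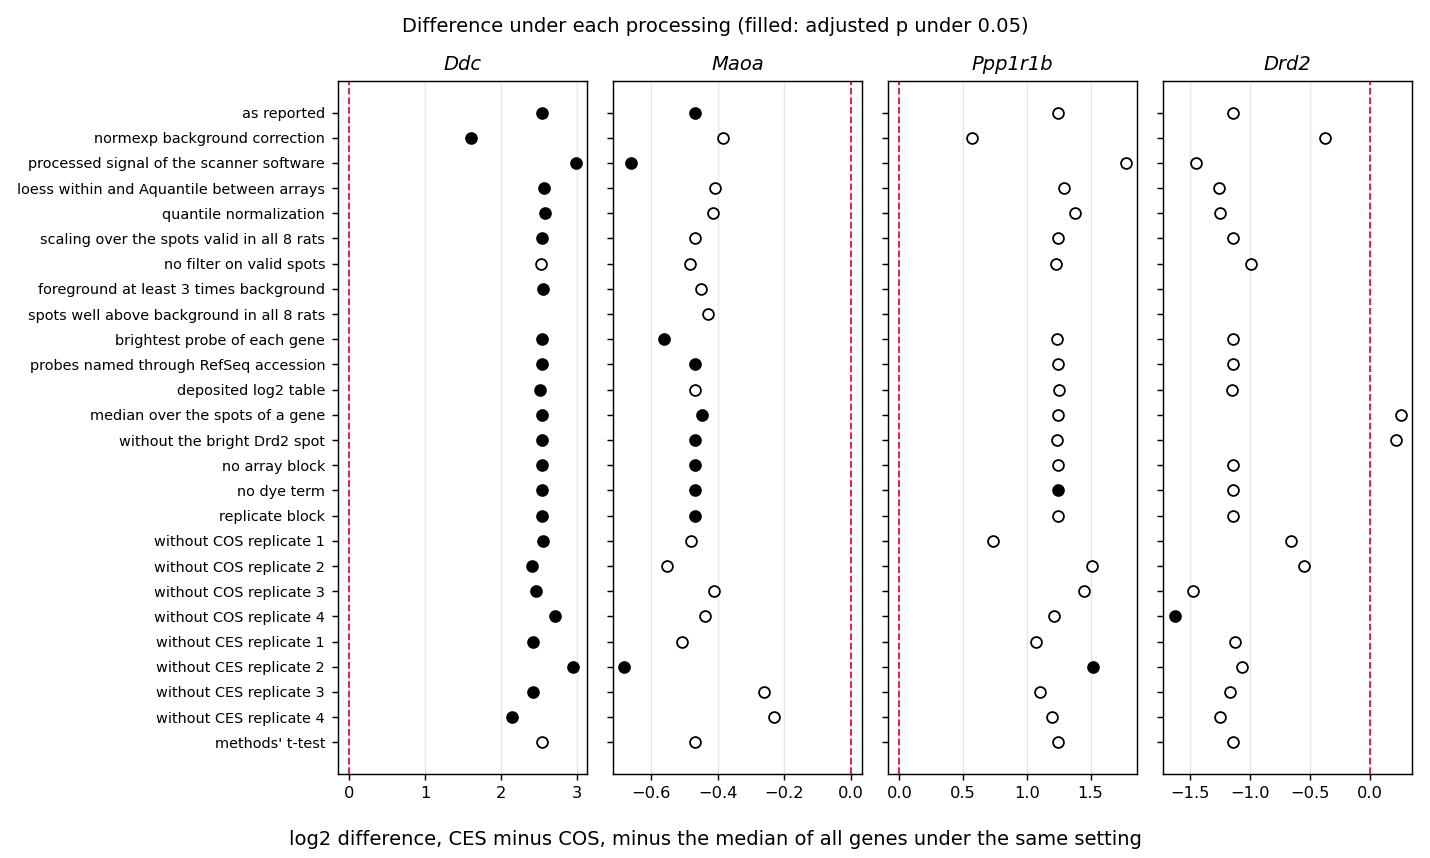
Difference of Ddc, Maoa, Ppp1r1b and Drd2, CES minus COS, relative to the median of all genes under the same setting (x axis, log2 units, a different range in each panel), for each processing and each rat left out, filled where the adjusted p was under 0.05. Ddc stays between 1.61 and 2.99 and is filled in all but 2 alternatives, Maoa keeps its direction and loses its call in 16, and Drd2 turns from −1.14 to 0.22 without its bright spot.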

How the data were processed

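Signal in the DG of 8 rats, 4 COS and 4 CES, was read from 4 Agilent 2-colour arrays on 1 slide, each holding 2 rats of the same group, 1 per dye. As deposited, the scanner files give, for each channel, the intensity of a spot and its surrounding background and quality flags (0 or 1), from Agilent Feature Extraction 10.7.3.1. The authors also deposited a log2 table, whose columns are the background-subtracted median signal on the log2 scale, each centred on 0 at its own median. Its scale and centring were found by this match. Probe positions are those of rn4 in the files, and promoter windows are from RefSeq on GRCr8. The 9 member genes and the lists were chosen with earlier results of these data known.

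The mean signal minus background median of each valid spot (foreground 2 times background or more) was divided by the channel median of such spots, averaged per gene over the spots that passed in every rat and log2 transformed. Of 43379 non-control spots, 74.6% to 88.9% were valid in COS rats and 70.7% to 81.5% in CES rats, and no spot was saturated. The channel medians were thus taken over different sets of spots. The groups were compared with limma 3.58.1 (R 4.3.3, statmod 1.5.0), with dye as a term and array as a random block, two-sided, Benjamini-Hochberg adjusted over all genes, at 0.05. The precision is a median standard error of 0.20 over all genes and 0.26 over the members on the log2 scale. Counts of marked genes per rat were tested by exact permutation. The fit was tested on simulated data. Groups, replicates and dyes come from the labels. All members and the other genes listed in the design are named, apart from 1 that is not reported here, and of each pathway list up to 6 called genes with the largest difference. Same-numbered rats share a dye. Their deviations correlated between 0.21 and 0.34, and between −0.28 and 0.08 after removal of the dye. With so few rats per dye in each group this showed no pairing but cannot exclude it. The rats were treated as unpaired. Alternatives were normexp (offset 50), the scanner's processed intensity, loess and Aquantile, quantile normalization, other filters and scalings, other probe rules, other models, the methods' t-test, the table as deposited and omission of each rat in turn. The t-test of the methods, with unequal variances, was adjusted here by Benjamini-Hochberg over all genes. The methods instead correct for redundant spots of a gene and set a fold-change cut-off for each gene, which were not applied here. Taking the median over the spots of a gene and dropping 1 Drd2 spot were added after the data were seen.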

Additional observations from a re-analysis of the deposited data

Results flagged for a closer look

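In groups of 4, the value farthest from the others was examined in 46 groups of 23 named genes, and 3 stood apart by Dixon's criterion, where chance gives about 1 in 20. The log2 level of Ddc in CES replicate 2 was −0.31, while the nearest CES rat had 1.62. That of Hnmt in CES replicate 2 was −0.76, with the nearest CES rat at 0.77. That of Hdc in COS replicate 4 was −0.68, with the nearest COS rat at 0.06. CES replicate 2 was also the CES rat nearest to COS for Gch1, Penk, Tac1, Caly and Ppp3ca, though not for Hdc and Gnai2. Its place is therefore not particular to Ddc and Hnmt.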

How the results depend on the processing

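Limits lie in the dim signals of the receptors, in the arrays holding 1 group each, and in the single spot of Ddc, Ppp1r1b, Maob, Drd3, Drd4 and Drd5. A difference of the members of the size of their median standard error, 0.26, could not be shown. Of the members, 2 were called as reported, 1 under normexp, under loess with Aquantile, under quantile normalization, with scaling on spots valid in every rat, with a 3-fold foreground over background and with the deposited log2 table. With spots well above background in all 8 rats, where only Maoa and Maob were measured, without the filter on valid spots and with the methods' t-test 0 were called. Over all genes 7276 were called, against 586 under normexp, 4100 with the 3-fold foreground and 3103 with spots well above background. Without the filter 0 genes were called by limma, against 9247 at an unadjusted p under 0.05. By the methods' t-test 0 were called after adjustment over all genes, against 6103 at an unadjusted p under 0.05. The share of calls that were higher was 17.0% as reported, 57.9% after quantile normalization, 66.1% with scaling on spots valid in every rat, 63.0% in the deposited table, 31.0% with the 3-fold foreground and 71.6% with spots well above background. Of the pathway genes 15 were called, against 2 under normexp, 7 with the 3-fold foreground, 9 with spots well above background, 0 without the filter and 0 by the methods' t-test. Leaving out 1 rat gave 1 to 3 members, 1171 to 8837 genes and 2 to 20 pathway genes, with 1171 and 2 of them without COS replicate 3, 2988 and 5 without CES replicate 1, 4145 and 7 without COS replicate 1, and 9 pathway genes without COS replicate 2. Drd4, near background, turned to 0.40 with the processed signal, 0.12 after loess with Aquantile, 0.10 after quantile normalization, 0.37 with scaling on spots valid in every rat, 0.31 without the filter and 0.29 in the deposited table, and it ran from −0.30 to 0.12 when a rat was left out. Drd2 turned to 0.0013 with the median over spots. Maob ran from −0.067 to 0.15 when a rat was left out, turning without COS replicate 3 or 4 or CES replicate 3 or 4. The causes were not tested, and the Drd2 spot was dropped only after its values were seen. With the replicate number as a block 2 members, 7207 genes and 14 pathway genes were called, and it changed no call of a member. Without the array block 2 members and 7215 genes were called, so the array block changed little. The difference in members marked per rat was 1.75, with a range of 0.58 to 2.58 when a rat was left out.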
